A study of Astatotilapia calliptera and Haplochromis burtoni and Pundamilia nyererei with 40 samples.

Results

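Piwi genes and ddx4 were followed through the gonads and brains of Lake Malawi cichlids. The members are all genes that the gene table of *Astatotilapia calliptera* (AC) names piwil1, piwil2 or ddx4. They are 6 of its 26977 genes: 4 piwil1 genes, 1 piwil2 gene and 1 ddx4 gene. The piwil1 genes are called copy A (ENSACLG00000014540), copy B (ENSACLG00000005074), copy C (ENSACLG00000005760) and copy D (ENSACLG00000005069) here, in order of their mean TPM in AC testes. piwil2 is ENSACLG00000020551 and ddx4 is ENSACLG00000007422. By symbol, the RefSeq annotation of the AC assembly fAstCal1.2 places 1 piwil1 gene on chromosome 12 (25978361 to 25990663), piwil2 on the same chromosome (3699497 to 3728617) and ddx4 on chromosome 23 (41850006 to 41857982), all as protein-coding genes. Which of the 4 copies is this piwil1 gene is not given by that annotation, and no copy is matched here to a numbered paralog name.

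Piwi proteins are Argonaute proteins that bind piRNAs, small RNAs made mainly in germ cells. Guided by these RNAs they cut or silence the transcripts of transposable elements (TEs), stretches of DNA that can copy or move themselves within a genome. Zebrafish carry one Piwi protein of each type, Ziwi (piwil1) and Zili (piwil2), and both act in germ cells. Ddx4, also known as Vasa, is a DEAD-box RNA helicase of the germ granules next to the nucleus, where piRNAs are made, and its transcript is a common germ cell marker in fish.

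The study sequenced poly(A) RNA from 40 libraries of wild-type cichlids, of which 20 are used here. From AC these are testes (n = 4), ovaries (n = 4), male brains (n = 3) and female brains (n = 3). Testes were also sequenced from *Tropheops* sp. 'mauve' (TM, n = 4) and *Maylandia zebra* (MZ, n = 2). Per the study's methods, replicates came from size-matched individuals of a species. MZ testes came from dominant adult males bred in captivity and bought from a supplier, while AC and TM were raised in the study's aquaria. No social status is stated for AC or TM. Species, source of the fish and social status thus cannot be told apart for MZ. No age is stated for AC or TM in the sources used here. A sequencing company made the gonad libraries used here, and the AC brain libraries were prepared and sequenced by a different protocol, so organ and library protocol cannot be told apart between gonads and brains.

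Levels in AC organs are given in TPM, transcript abundances that correct for transcript length and sum to 1000000 in each library, and were estimated with Salmon. The testes of the 3 species were counted with TEtranscripts after mapping to the AC genome, and are given in CPM, counts scaled to 1000000 assigned counts per library with no correction for length. The AC gonads had between 18241046 and 22360362 Salmon counts per library and the AC brains between 6728130 and 19685495. The TEtranscripts libraries had between 20973400 and 26742599 counts. AC ovary replicate 1 stood apart: 16.6% of its TPM fell on its 10 most abundant genes, against 6.04% to 7.28% in the other ovaries, and 11124 genes reached 1 TPM, against 14355 to 15909. Its summed TPM over 10 germ cell genes was 348, against 640 to 855 in the other ovaries, so values without it, an alternative chosen after the data were seen, are given beside the results that rest on the ovaries.

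Markers were used to check the labelled organs. Neuron markers summed to at most 30.8 TPM in testes and 30.1 TPM in ovaries, against 6365 to 7330 TPM in male brains and 6583 to 11543 TPM in female brains. AC female brain replicate 1 stood apart, with the highest neuron sum and with muscle markers at 1751 TPM, against 2.79 and 23.2 TPM in the other female brains and 4.12 to 10.8 TPM in male brains. Sperm and spermatid markers summed to 100 to 996 TPM in testes, against 3.07 to 10.1 TPM in ovaries. Granulosa and theca markers summed to 14.5 to 17.0 TPM in testes, against 80.9 to 646 TPM in ovaries. The sum of 7 Sertoli markers overlapped between the gonads, at 107 to 143 TPM in testes and 46.8 to 339 TPM in ovaries. Of these 7, 3 were called higher in testes than in ovary and 4 lower, against 16.2% and 14.2% of all genes. The 5 oocyte markers found among 13 symbols (bmp15, figla, gdf9, zar1 and zar1l) did not separate the gonads: they summed to 2307 to 3549 TPM in testes and 2325 to 3576 TPM in ovaries. Their sum thus does not mark the ovary in these libraries. By gene, 0 of the 5 were called higher in testes than in ovary and 1 lower, with a median log2 fold change of -0.54. Over all genes 16.2% were called higher and 14.2% lower. The gene called was gdf9 (-0.81, adjusted p = 0.0137, edgeR's quasi-likelihood test), and it stayed called without AC ovary replicate 1 (-0.61, adjusted p = 0.0174). Germ cell genes other than the members summed to 1307 to 1885 TPM in testes, against 348 to 855 TPM in ovaries, and the part of this difference in the results below was not tested.

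The first comparison asked how strongly each member is transcribed in the testes and ovaries of AC. Copy A of piwil1 was the most abundant member in testes, with 352, 308, 399 and 293 TPM in the 4 testes, against 6.37, 92.3, 116 and 87.2 TPM in the 4 ovaries. All 4 testes lay above every ovary, and the lowest ovary by far was replicate 1. The means were 338 ± 47.8 TPM in testes and 75.4 ± 47.7 TPM in ovaries (SD, n = 4 each). Copy A was higher in testes by 2.04 on the log2 scale (SE 0.52, adjusted p = 0.00927, edgeR's quasi-likelihood test), and by 1.72 without AC ovary replicate 1 (adjusted p = 0.00082).

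piwil2, the other Piwi gene, reached 124, 119, 113 and 129 TPM in testes, against 18.1, 51.0, 69.4 and 56.8 TPM in ovaries. Its testes were close together, at 121 ± 6.80 TPM (SD, n = 4), and all lay above every ovary (48.8 ± 21.9 TPM, SD, n = 4). The log2 fold change was 1.05 (SE 0.32, edgeR adjusted p = 0.0246) and 0.96 without AC ovary replicate 1 (adjusted p = 0.0138). This call was lost, with the direction kept, when testes replicate 1, 2 or 4 was left out (adjusted p = 0.0541, 0.0538 and 0.0584).

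ddx4 was read at 211, 191, 182 and 247 TPM in testes, against 44.8, 60.8, 106 and 101 TPM in ovaries. Again no testis overlapped with an ovary. Its log2 fold change was 1.08 (SE 0.24, edgeR adjusted p = 0.00457), with 1.14 without AC ovary replicate 1 (adjusted p = 0.00227). In bulk tissue, fewer germ cells and less RNA per germ cell cannot be told apart, which holds for all values of the 3 genes here.

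Together, 3 of the 5 member ids that passed the filter on low counts were called higher in testes. Over all genes tested, 30.4% were called, 16.2% higher in testes and 14.2% lower. The share of all genes with all testes above every ovary is not given, so that separation is not read as particular to the members. Under scaling by total counts the median of all genes moved to 0.22 from 0.02 on the log2 scale, and the share of higher genes among those called was 66.5%, against 53.4% under TMM scaling. The 3 calls were kept under both scalings. They were also kept with DESeq2, with limma on log2(TPM + 1), and when the same gonad libraries were counted with TEtranscripts (log2 fold changes 2.02 for copy A, 1.16 for piwil2 and 1.19 for ddx4; of all features, 13.5% were then called higher and 9.36% lower).

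**Figure D1:**
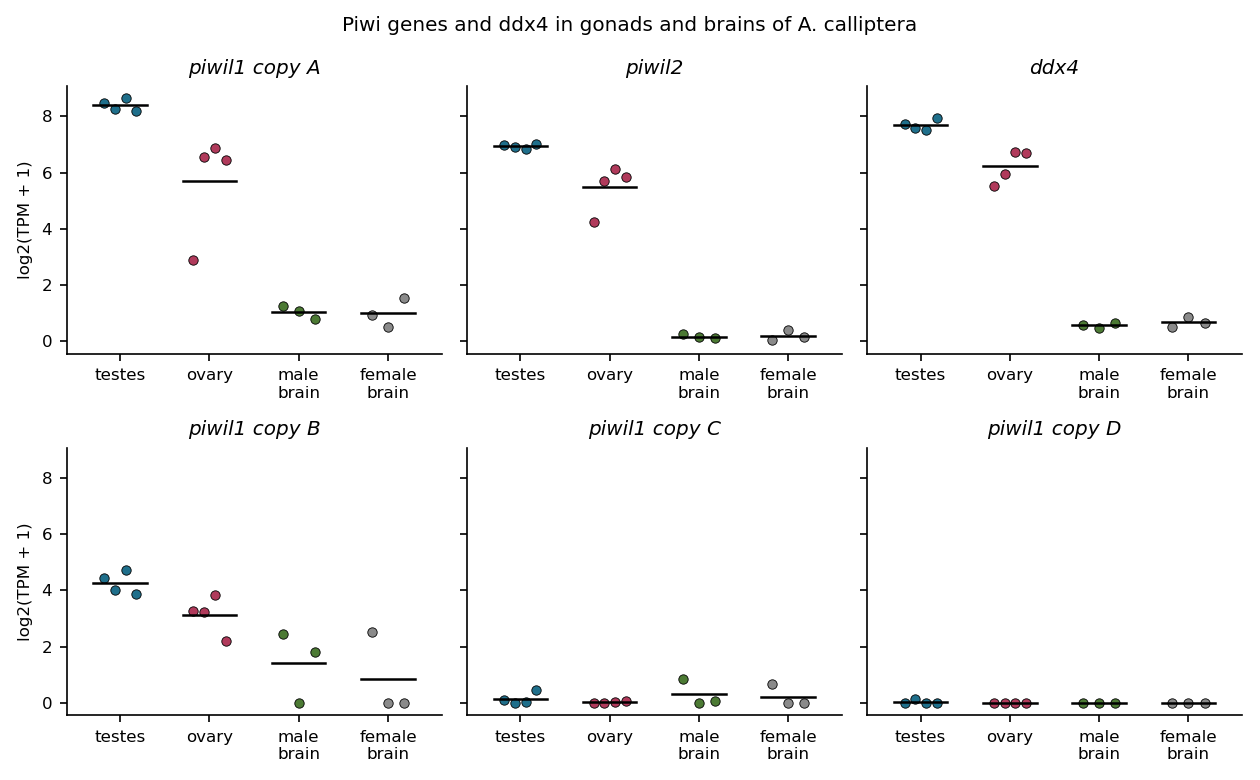
Levels of the 6 members in AC, as log2(TPM + 1) on the vertical axis, in testes (n = 4), ovaries (n = 4), male brains (n = 3) and female brains (n = 3). Points are libraries in replicate order and bars are group means. Copy A of piwil1, piwil2 and ddx4 are high in all testes, lower in the ovaries with replicate 1 lowest, and near 0 in brains, while copies C and D are near 0 in all groups.

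The other piwil1 copies were far lower. Copy B had 20.5, 15.0, 25.5 and 13.5 TPM in testes, against 8.59, 8.38, 13.1 and 3.56 TPM in ovaries. All 4 testes lay above every ovary in TPM, but the testes-over-ovary log2 fold change of 0.72 (SE 0.89) did not pass the test (edgeR adjusted p = 0.573). AC ovary replicate 1 was not the lowest ovary for this copy. Without it the log2 fold change was 1.13 (adjusted p = 0.380).

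Copies C and D were hardly detected by Salmon. Copy C lay between 0 and 0.376 TPM in testes and between 0 and 0.0371 TPM in ovaries, and its log2 fold change of 2.70 (SE 1.64) did not pass the test (edgeR adjusted p = 0.231; 2.51 and 0.299 without AC ovary replicate 1). Copy D was at 0 in 13 of the 14 AC libraries and at 0.105 TPM in testes replicate 2, where it rested on about 1 read. At 3 counts per library, a count of 0 allows between 0.134 and 0.446 CPM in these 13 libraries, a limit that covers counting error only.

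The copies thus contributed unequally to the piwil1 RNA of the gonads. Copy A made up 94.0% to 95.5% of the summed piwil1 TPM in testes. In ovaries its share was 89.8% to 96.0% in replicates 2 to 4 and 42.6% in replicate 1, where copy B gave 57.4%. The share of copy B in the testes had a median of 5.07%. TPM divides by transcript length, and the effective length of copy B was short, with a median of 0.0933 times that of piwil2, against 0.870 times for copy A.

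The counts behind copy B are therefore small, and they depended on how reads were assigned. Salmon gave copy B between 76.9 and 138 counts in testes and between 18.1 and 70.2 in ovaries. TEtranscripts gave it 9, 6, 7 and 20 counts in the same testes and 0, 2, 6 and 0 in the ovaries. Copy C went the other way, with 2.49, 0, 1.11 and 15.6 counts from Salmon in testes and 17, 30, 26 and 195 from TEtranscripts.

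Copy A, piwil2 and ddx4 were close between the counting methods, with 1 ovary of copy A as the exception. For piwil2 the TEtranscripts count was 0.929 to 1.00 times the Salmon count over the 8 AC gonads, and for ddx4 it was 0.996 to 1.01 times. For copy A the range was 0.996 to 2.17, and the highest value belonged to AC ovary replicate 1, with 600 counts from TEtranscripts and 276 from Salmon. Per the study the piwil1 copies share sequence, and reads that fit several copies can be split between them. The part of this in the gap between the counting methods was not tested. With the methods this far apart, the levels of copies B, C and D are uncertain. Counts under the uncurated TE annotation differed from the curated ones by at most 2 reads in any library for any member.

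**Figure D2:**
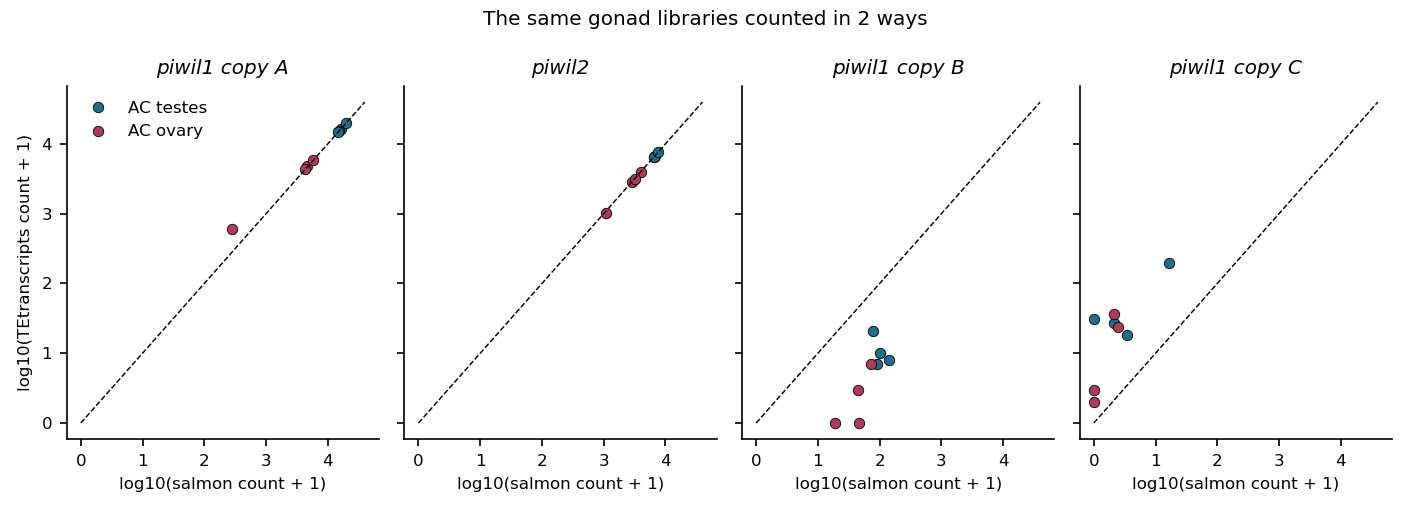
Counts of copy A, piwil2, copy B and copy C in the 8 AC gonad libraries, with Salmon on the horizontal axis and TEtranscripts on the vertical axis, both as log10(count + 1). Each point is a library (testes and ovaries in different colours), and the dashed line marks equal counts. Copy A and piwil2 follow the line except for 1 ovary of copy A, copy B lies below the line and copy C above it.

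Whether the members are transcribed outside the gonad was asked in the brain. The levels there were low in all 6 libraries. Copy A had 1.38, 1.13 and 0.745 TPM in male brains and 0.902, 0.428 and 1.89 TPM in female brains. piwil2 had between 0.0850 and 0.185 TPM in male brains and between 0.0241 and 0.338 TPM in female brains, which rested on 1 to 5 counts per library. ddx4 lay between 0.392 and 0.575 TPM in male brains and between 0.431 and 0.804 TPM in female brains.

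All 3 of these genes were called higher in the gonads than in the brains. Testes over male brain, the log2 fold changes were 8.71 for copy A (SE 0.82), 10.21 for piwil2 (SE 0.59) and 9.02 for ddx4 (SE 0.41), with edgeR adjusted p-values of 6.52e-07, 9.18e-09 and 2.33e-09. Ovary over female brain, they were 6.69 (SE 0.75), 9.18 (SE 0.57) and 7.77 (SE 0.39), with edgeR adjusted p-values of 2.71e-06, 1.15e-08 and 2.15e-09. All 3 stayed called without AC ovary replicate 1 (7.05, 9.36 and 7.77) and without AC female brain replicate 1 (6.57, 8.404 and 7.56). In testes over male brain 4 of the 5 ids tested were called, these 3 and copy B, and in ovary over female brain only these 3 were. Across all genes tested, 65.0% were called in testes over male brain (32.5% higher and 32.5% lower) and 67.7% in ovary over female brain (32.4% higher and 35.4% lower). Since protocol and organ go together here, neither can be named as the source of a difference.

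By Salmon, copy B behaved differently from copy A in the brain. All brain values rest on Salmon alone, since the TEtranscripts counts used here cover gonads only. In AC ovary replicates 1 and 4 Salmon gave copy B 45.9 and 18.1 counts, where TEtranscripts gave 0. The brain values of copy B are therefore uncertain. Copy B had 4.49, 0 and 2.47 TPM in male brains and 4.72, 0 and 0 TPM in female brains. In 3 of the 6 brains it thus exceeded copy A in TPM, and in the other 3 it was at 0. In counts it had 9.11, 0 and 8.72 reads in males and 23.2, 0 and 0 reads in females, below the 18.1, 16 and 20.3 reads in males and the 29.3, 5 and 28 reads in females of copy A, whose effective length is greater. Copy C had reads in the same 3 brains, with 0.792, 0 and 0.0462 TPM in males and 0.592, 0 and 0 TPM in females. Copy B was called higher in testes than in male brain (log2 fold change 2.97, SE 1.12, edgeR adjusted p = 0.0308), which was lost without male brain replicate 2 (adjusted p = 0.0901), male brain replicate 3 (0.0888) or testes replicate 3 (0.0554). Ovary over female brain, its log2 fold change of 2.55 (SE 1.09) missed the threshold (edgeR adjusted p = 0.0517, DESeq2 adjusted p = 0.0281), and it passed without female brain replicate 1, the one female brain with reads (adjusted p = 0.00243; both remaining female brains are at 0, so no fold is given). This library is the one with the high muscle and neuron sums, and their part in its reads of copies B and C was not tested. Over those brains, a count of 0 allows up to 0.446 CPM of copy B.

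No member was called between male and female brains. The male-over-female log2 fold changes were 0.02 for copy A (SE 0.69), 0.01 for piwil2 (SE 0.61), -0.16 for ddx4 (SE 0.37) and 0.29 for copy B (SE 1.18). None of the 20893 genes tested was called (0.00%) by edgeR, although 564 had an unadjusted p under 0.05 and DESeq2 called 10, none of them a member. For copy A, piwil2 and ddx4 the order of mean levels was thus testes, ovaries and brains, and the male and female brains at the low end differed by less than their spread.

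Whether the gonad-over-brain difference was larger in males than in females was tested directly. The difference of log2 fold changes, males minus females, was 2.02 for copy A (SE 0.86), 1.03 for piwil2 (SE 0.81) and 1.24 for ddx4 (SE 0.45). No member was called by edgeR (adjusted p = 0.138, 0.443 and 0.0842), while 12.4% of all genes were (7.63% higher and 4.78% lower), and DESeq2 called no member either. Copy A and ddx4 had an unadjusted p under 0.05. The share of all genes under that threshold is not given here, so nothing is read from this. Without AC ovary replicate 1 copy A passed, with a difference of 1.73 (adjusted p = 0.0261).

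Members can also be set against each other within a library, which leaves out the depth and scaling of the library. These ratios were chosen after the values were seen, and 12 such tests were run. For other gene pairs the share without overlap is not given, so a separation is not read as particular to the members. The TPM of copy A was 2.85, 2.58, 3.52 and 2.27 times that of piwil2 in testes, against 0.353, 1.81, 1.67 and 1.53 times in ovaries. All 4 testes lay above every ovary, a log2 difference of 1.29 with an exact permutation p of 0.0286 (two-sided), the smallest that 4 against 4 libraries allow, and an adjusted p of 0.171. Without AC ovary replicate 1 the difference was 0.73, so this library set much of its size.

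The ratio of ddx4 to piwil2 did not separate the gonads of AC. It was 1.71, 1.61, 1.61 and 1.91 in testes, against 2.48, 1.19, 1.53 and 1.79 in ovaries (log2 difference 0.02, exact permutation p = 0.943, two-sided). The ratio of ddx4 to copy A was 0.457 to 0.843 in testes, against 0.658 to 1.16 in ovary replicates 2 to 4 and 7.04 in ovary replicate 1. The log2 difference was -1.28 (exact permutation p = 0.0571, adjusted p = 0.229) and -0.53 without that replicate.

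**Figure D3:**
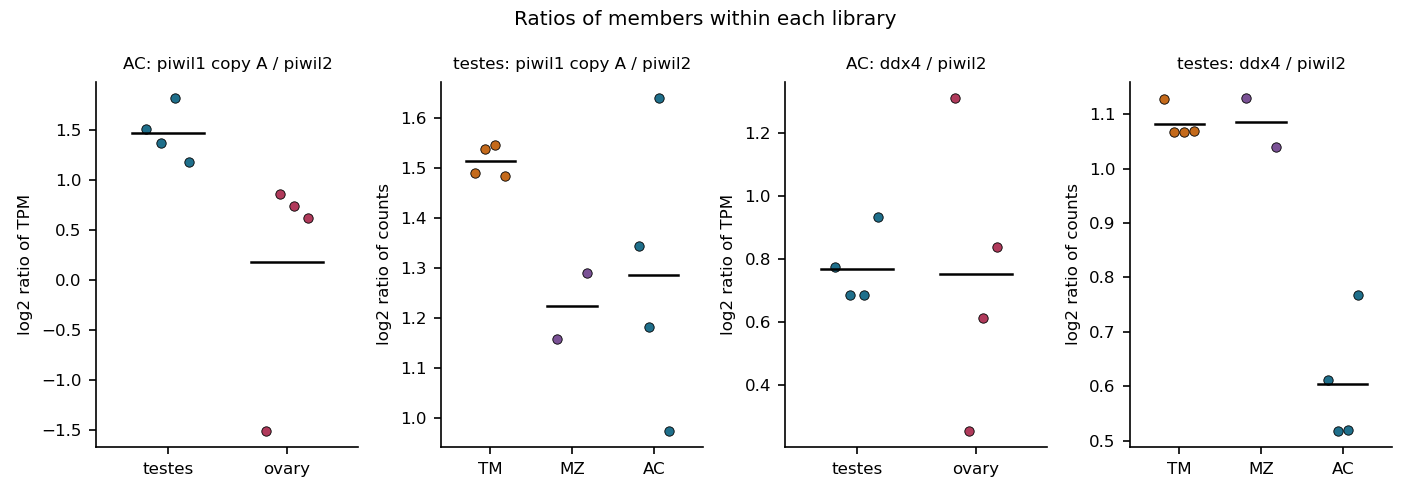
Log2 ratios of members within each library: copy A over piwil2 and ddx4 over piwil2, from TPM in AC testes and ovaries (n = 4 each) and from counts in the testes of TM (n = 4), MZ (n = 2) and AC (n = 4). Points are libraries, bars are group means, and the vertical axes differ between panels and do not start at 0. The ratio of copy A to piwil2 is higher in AC testes than in AC ovaries, and the ratio of ddx4 to piwil2 is lower in AC testes than in the testes of TM and MZ.

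Other genes of the piRNA pathway were read from a list. Of 16 further pathway genes, all that were found among 32 symbols, 7 were called higher in testes than in ovary and 0 lower. Over all genes tested, 16.2% were called higher and 14.2% lower in this comparison. The median log2 fold change of the 16 was 1.04, against 0.02 over all genes. pld6, a nuclease that makes the 5′ ends of piRNAs in mouse, had the largest log2 fold change (2.43, SE 0.38, edgeR adjusted p = 0.000363), followed by tdrd6, a Tudor-domain protein of germ granules (2.24, SE 0.47, edgeR adjusted p = 0.00287). Without AC ovary replicate 1 the count was 8 higher and 0 lower, against 3996 higher and 3307 lower of all 20929 genes then tested. In testes over male brain, 12 of the 16 passed as higher and 1 as lower, against 32.5% higher and 32.5% lower over all genes. In ovary over female brain, 11 passed as higher and 4 as lower, against 32.4% and 35.4% over all genes. Without AC ovary replicate 1, 12 passed as higher and 4 as lower, against 7618 higher and 7811 lower of all 20929 genes then tested.

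tdrd7a and henmt1 stood out among the pathway genes in both sexes. tdrd7a, another Tudor-domain gene, was higher by 10.75 in testes and by 9.25 in ovary on the log2 scale. Among ovaries it was lowest in AC ovary replicate 1, at 7.46 TPM, against 73.0 to 117 TPM in the others. henmt1, which methylates the 3′ ends of piRNAs, had a log2 fold change of 9.04 in testes over male brain. In ovaries it was at 82.4 to 147 TPM and in all 3 female brains it was listed at 0 TPM. Its level in AC ovary replicate 1 was 145 TPM, within the range of the other ovaries. The relative of tdrd7a, tdrd7b, was lower in both gonads than in the brains (-1.88 in testes and -3.37 in ovary), and tdrkh was lower in ovary than in female brain (-1.58).

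A pair of related families served as a comparison. Of the 4 Argonaute genes outside the Piwi group, ago2 was called higher in testes than in ovary (3.41, SE 0.87, edgeR adjusted p = 0.00937), 0 were called lower, and the median was 0.23. Without AC ovary replicate 1 ago2 stayed called (3.16, adjusted p = 0.0135) and the median was 0.05. Ago proteins carry microRNAs and siRNAs in all tissues. Of 9 other DEAD-box ids, 1 of the 2 named ddx5 (ENSACLG00000003098) was called higher (2.29, SE 0.32, edgeR adjusted p = 0.000165) and 0 lower, with a median of 0.08. Without AC ovary replicate 1 it stayed called (2.18, adjusted p = 0.00035) and the counts were 3 higher and 0 lower, with a median of 0.36. In testes over male brain, 1 of the 4 Argonaute genes was called higher and 0 lower, and of the DEAD-box ids 3 were called higher and 4 lower. Over all genes tested, 16.2% were called higher and 14.2% lower in testes over ovary (3996 and 3307 of 20929 genes without AC ovary replicate 1). In testes over male brain these shares were 32.5% and 32.5%, and nothing is read from counts this small.

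Germ cell genes did not all follow the members. Of 9 tested, 4 were called higher in testes than in ovary and 1 lower, against 16.2% higher and 14.2% lower over all genes. sycp1 and sycp3, which build the synaptonemal complex of meiotic chromosomes, led with log2 fold changes of 10.19 and 6.02. nanos1, an RNA-binding repressor, was lower in testes (-2.96). Without AC ovary replicate 1 the counts were again 4 and 1, against 3996 higher and 3307 lower of all 20929 genes then tested. nanos1 was also lower in testes than in male brain (-6.73) and in ovary than in female brain (-3.67). sycp3 was likewise lower in ovary than in female brain (-2.64, SE 0.31, edgeR adjusted p = 4.28e-06). Of the 9, 8 were called higher and 1 lower in testes over male brain, against 32.5% and 32.5% of all genes. In ovary over female brain 6 were higher and 2 lower, with or without AC ovary replicate 1. Over all genes these shares were 32.4% and 35.4% with all ovaries. Without AC ovary replicate 1, 7618 of 20929 genes were called higher and 7811 lower. tdrd6 belongs to this list and to the pathway list.

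The genes whose levels ran most like the members were found by Pearson's r of log2(TPM + 1) over the 14 AC libraries, among 11789 candidates. For piwil2 they were tdrd1 (r = 0.998), selenoh (0.998), ddx4 (0.998), si:dkey-208k4.2 (0.996) and si:dkeyp-93d12.1 (0.995). For ddx4 they were si:dkey-208k4.2 (0.998), piwil2 (0.998), tdrd1 (0.997), adad1 (0.996) and nip7 (0.996). tdrd1 encodes a Tudor-domain protein that binds Piwi proteins in mouse and zebrafish.

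Copy A ran most like e2f5 (0.994), tdrd6 (0.994), tdrd7a (0.993), h2az1 (0.992) and esco2 (0.992). For copy B the values were lower, led by nuf2 (0.902) and mmachc (0.895), followed by cndp2 (0.890), prc1b (0.885) and gtf3c5 (0.881). These correlations are descriptions over libraries that differ mainly between gonad and brain, and thus also in protocol.

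The next comparison set the testes of the 3 Lake Malawi species side by side. The members that are abundant in AC testes were abundant in all of them. Copy A had 572, 644, 636 and 666 CPM in TM, 558 and 731 CPM in MZ, and 703, 616, 788 and 591 CPM in AC. The libraries of the 3 species overlapped. The log2 fold changes were 0.07 for TM over AC (SE 0.15), -0.04 for MZ over AC (SE 0.18) and 0.11 for TM over MZ (SE 0.18), with edgeR adjusted p-values of 0.777, 0.929 and 0.734.

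piwil2 was read at 204, 222, 218 and 238 CPM in TM, 249.8 and 299 CPM in MZ, and 277, 271, 253 and 300.5 CPM in AC. All 4 TM libraries lay below every AC and MZ library in CPM. After TMM scaling the log2 fold change of TM over AC was -0.16 (SE 0.14, edgeR adjusted p = 0.490), and that of TM over MZ was -0.17 (SE 0.17, edgeR adjusted p = 0.555). Under scaling by total counts the TM-over-AC value was -0.32. The share of all features without overlap between species is not given, so such separation is not read as particular to a member.

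ddx4 was read at 446, 464, 456 and 499 CPM in TM, 547 and 614 CPM in MZ, and 423, 388, 363 and 511 CPM in AC. Both MZ libraries lay above all others, while TM and AC overlapped. The log2 fold changes were 0.31 for TM over AC (SE 0.16, edgeR adjusted p = 0.218) and 0.49 for MZ over AC (SE 0.20, edgeR adjusted p = 0.152). Neither passed the test.

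The piwil1 copies that are low in AC differed most between the species. Copy B was called higher in TM than in AC, with 71, 63, 75 and 83 counts in TM, 32 and 27 in MZ, and 9, 6, 7 and 20 in AC. In CPM this is 2.63 to 3.26 in TM, 1.197 and 1.098 in MZ, and 0.239 to 0.795 in AC, with no overlap between any pair of species. The log2 fold change of TM over AC was 2.96 (SE 0.40, edgeR adjusted p = 0.000592). The call rests on TEtranscripts alone, since Salmon values are used here for AC only. For the same AC testes Salmon gave copy B 102, 91.0, 138 and 76.9 counts, a range that overlaps the 63 to 83 counts from TEtranscripts in TM. Copy B was the only one of the 5 member ids tested that was called in this comparison, in which 18.8% of all features were called, 8.87% higher and 9.93% lower.

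The remaining steps for copy B missed the threshold. MZ over AC, its log2 fold change was 1.46 (SE 0.46, edgeR adjusted p = 0.0735), and TM over MZ it was 1.50 (SE 0.47, edgeR adjusted p = 0.0671). DESeq2 called both (adjusted p = 0.0265 and 0.00849), and so did edgeR without AC testes replicate 4 (adjusted p = 0.0121 and 0.0251). These comparisons share their AC or TM libraries.

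Copy C had 210, 209, 247 and 270 counts in TM, 275 and 301 in MZ, and 17, 30, 26 and 195 in AC. AC testes replicate 4 thus came close to the other species, while the other AC testes were far below. The log2 fold changes were 1.98 for TM over AC (SE 0.66, edgeR adjusted p = 0.0600) and 2.08 for MZ over AC (SE 0.75, edgeR adjusted p = 0.114). Without AC testes replicate 4 they were 3.45 and 3.55, with adjusted p-values of 6.13e-05 and 0.000181. Copy D had 0 to 3 counts in TM, 3 and 4 in MZ and 1 to 4 in AC, too few to test.

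By TEtranscripts, AC testes replicate 4 was also the AC library with the most copy B counts, at 20. By Salmon it had the fewest copy B counts of the AC testes, at 76.9. This library had the fewest sperm and spermatid transcripts of the AC testes, with a marker sum of 100 TPM, against 340 to 996 TPM in the others. The part of this in the values of copies B and C was not tested.

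**Figure D4:**
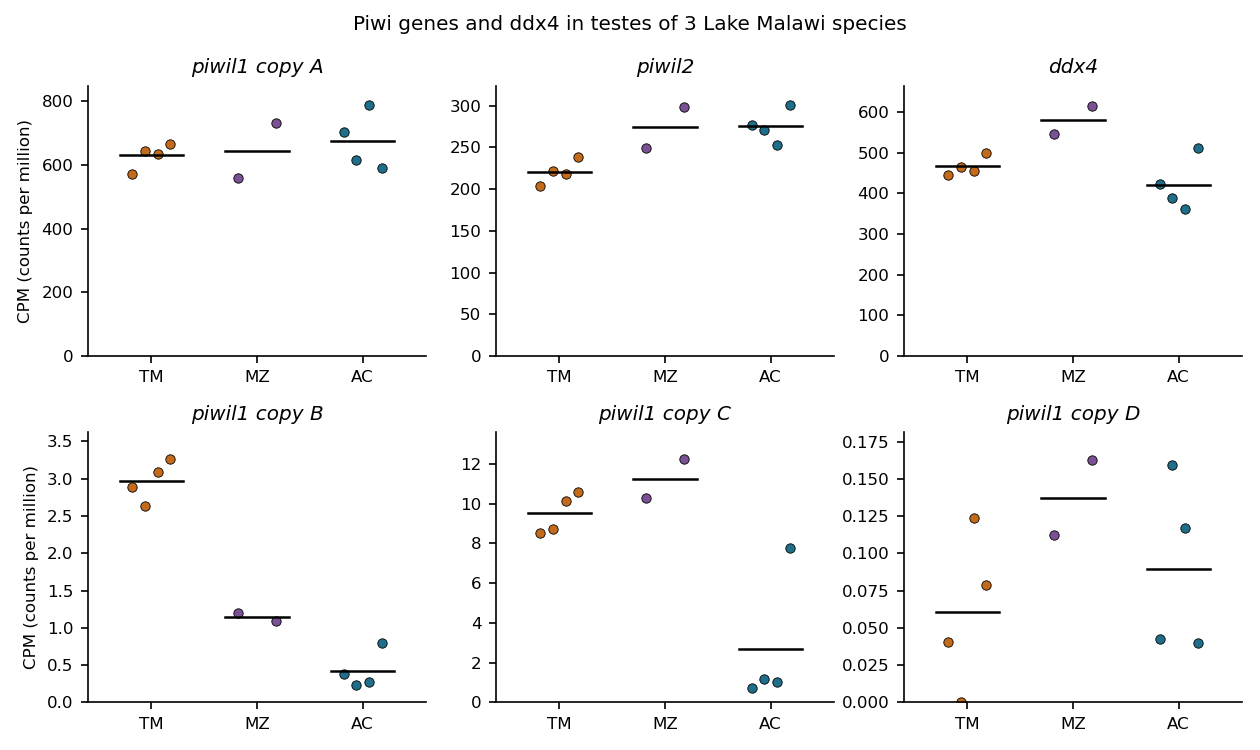
Levels of the 6 members in the testes of TM (n = 4), MZ (n = 2) and AC (n = 4), in CPM on the vertical axis, with a scale of its own for each panel. Points are libraries in replicate order and bars are group means. Copies B and C are higher in TM and MZ than in every AC testis, and AC replicate 4 reaches 7.75 CPM for copy C. Copy A overlaps between the species, piwil2 is lowest in the TM libraries and ddx4 is highest in the MZ libraries.

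No member was called in MZ over AC or TM over MZ by edgeR, where 8.90% (5.17% higher and 3.73% lower) and 10.2% (3.77% higher and 6.45% lower) of all features were called. At an unadjusted p under 0.05 there were 3 members in MZ over AC and 1 in TM over MZ, and DESeq2 called 1 in each. The shares of all features by these criteria are not given here, so nothing is read from these counts. Scaling by total counts moved the median of all features to -0.18 in TM over AC and to -0.14 in TM over MZ, from -0.01 in both. In the AC organs it likewise moved the median to -0.33 from -0.07 in ovary over female brain and to 0.23 from 0.04 in the difference between sexes. The sign of copy A in TM over AC turned under that scaling, to -0.10, without a call. The share of higher features among those called was then 31.6% in place of 47.2% in TM over AC, and 25.1% in place of 36.9% in TM over MZ. All reads were mapped to the AC genome, so differences in sequence between species can enter these counts. So can copies that TM or MZ lack or carry beyond those of AC. Per the study, some piwil1 paralogs occur in only part of the Lake Malawi individuals it examined. It also reports truncated paralogs and a likely pseudogene. The part of these in the counts was not tested.

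Within the testes libraries the ratio of ddx4 to piwil2, one of those chosen after the values were seen, was lowest in AC. It was 2.19, 2.09, 2.09 and 2.10 in TM, 2.19 and 2.06 in MZ, and 1.53, 1.43, 1.43 and 1.70 in AC. Every TM and MZ library lay above every AC library. How many other gene pairs separate the species in this way is not given, so this is not read as particular to these genes. Differences in sequence from the AC genome can enter a ratio too, and their part was not tested. TM over AC, the log2 difference was 0.48 (exact permutation p = 0.0286, two-sided, the smallest possible; adjusted p = 0.171 over the 12 ratio tests). MZ over AC, it was 0.48 (exact permutation p = 0.133, the smallest that 2 against 4 libraries allow; adjusted p = 0.267), and TM and MZ differed by less than their spread (exact permutation p = 1).

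The ratio of copy A to piwil2 was steady in TM and wide in AC. It was 2.81, 2.90, 2.92 and 2.80 in TM, 2.23 and 2.45 in MZ, and 2.54, 2.27, 3.12 and 1.97 in AC. The TM-over-AC log2 difference of 0.23 did not pass (exact permutation p = 0.171), and TM over MZ it was 0.29 (exact permutation p = 0.133, the smallest possible). The ratio of ddx4 to copy A was 0.717 to 0.779 in TM, 0.980 and 0.840 in MZ and 0.460 to 0.866 in AC, with no adjusted p under 0.05.

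The pathway list was also read between species. Of the same 16, 0 were called higher and 1 lower in TM than in AC (tdrd9, a helicase with a Tudor domain, -0.75, SE 0.13, edgeR adjusted p = 0.00273), and none was called in MZ over AC or TM over MZ by edgeR. Over all features 18.8%, 8.90% and 10.2% were called in these comparisons, and nothing is read from counts this small. The medians were -0.12, 0.11 and -0.09. Of the 4 Argonaute genes, ago4 was lower in TM than in AC (-1.46, SE 0.26), and ago4 and ago1 were lower in MZ than in AC (-1.65 and -1.30), while ago1 was higher in TM than in MZ (0.83, SE 0.23, edgeR adjusted p = 0.0452). Germ cell genes gave 0 calls of 10 in TM over AC and in MZ over AC, and nanos1 was lower in TM than in MZ (-2.63).

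Over the 10 testes libraries, the genes most like the members by Pearson's r of log2(CPM + 1), among 9966 candidates, were not those found across AC organs. piwil2 ran most like rad1 (0.972), leprot (0.969) and acat1 (0.968), ddx4 most like nae1 (0.979) and ssbp1 (0.960), and copy A most like plekha8 (0.945) and cdc42 (0.938). Copy B ran most like tuba1c (0.978) and myom3 (0.972), and copy C most like apodb (0.968) and ctps1a (0.943). With few libraries and many candidates such values are a description.

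Since Piwi proteins silence TEs, the members were set beside the TE share, the percentage of assigned counts that fell on 557 curated TE families. The share was 1.28% ± 0.140 in TM (SD, n = 4), 1.17% and 1.96% in MZ and 1.56% ± 0.166 in AC (SD, n = 4). For copy A, whose species overlapped, r with the TE share over the 10 testes was 0.52 (permutation p = 0.122, adjusted p = 0.203) and Spearman's rho was 0.55 (permutation p = 0.103). Without the 2 libraries farthest from the median level r was 0.585. The library total is part of both measures.

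Pooled r and rho were computed for 5 ids and none passed after adjustment. For the 4 ids other than copy A at least 1 species stood apart, so their pooled values are not given and values centred on the species mean are. The centred r was 0.33 for piwil2, 0.04 for ddx4, -0.34 for copy B and -0.25 for copy C, beside 0.50 for copy A. The exact permutation p-values within species were 0.807, 0.886, 0.197, 0.411 and 0.501 (two-sided, 1152 permutations), and all adjusted values were 0.835 or higher. MZ replicate 2 had the highest TE share, at 1.96%. No relation between a member and the TE share was detectable with these 10 libraries.

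**Figure D5:**
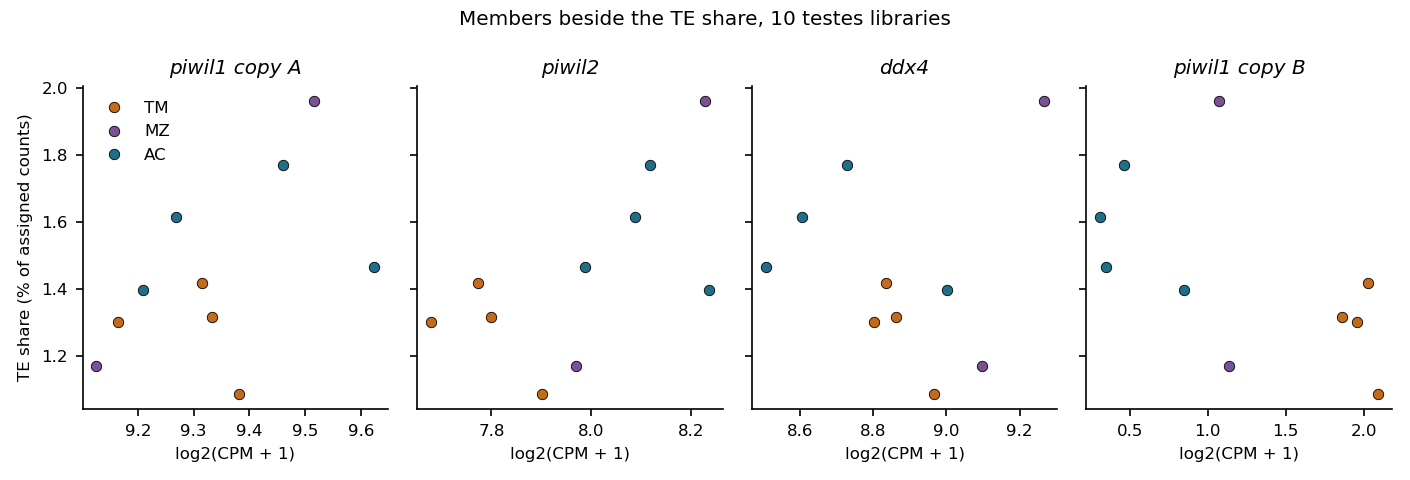
TE share of each testes library, in percent of assigned counts, on the vertical axis against log2(CPM + 1) of copy A, piwil2, ddx4 and copy B on the horizontal axis. Points are the libraries of TM (n = 4), MZ (n = 2) and AC (n = 4), in different colours. TM libraries sit apart from AC libraries for piwil2 and copy B, and the 2 MZ libraries lie at 1.17% and 1.96% of TE counts.

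Of the PiggyBac elements, a group of DNA transposons counted in the same table, PiggyBac-2 was higher in TM than in AC by 1.99 on the log2 scale (SE 0.18, edgeR adjusted p = 4.48e-05), at 21.9 ± 1.74 CPM in TM, 5.91 and 7.56 CPM in MZ and 6.15 ± 0.73 CPM in AC, while PiggyBac-1 lay at 3.91 ± 0.24 CPM in TM, 7.18 and 9.80 CPM in MZ and 6.59 ± 0.73 CPM in AC (TM over AC -0.59, SE 0.20, edgeR adjusted p = 0.0590; TM over MZ -0.97, SE 0.23, edgeR adjusted p = 0.0235). PiggyBac-2 was also higher in TM than in MZ (1.84, SE 0.23, edgeR adjusted p = 0.000764). In MZ over AC neither PiggyBac-2 (0.15, edgeR adjusted p = 0.713) nor PiggyBac-1 (0.39, edgeR adjusted p = 0.342) was called. PiggyBac-5 was at 15.4 ± 1.91 CPM in TM, 16.3 and 29.6 CPM in MZ and 17.2 ± 0.64 CPM in AC. It was not called by edgeR in TM over AC (adjusted p = 0.999), MZ over AC (0.42, adjusted p = 0.258) or TM over MZ (-0.42, adjusted p = 0.235). Of all features, 18.8% were called in TM over AC, 8.90% in MZ over AC and 10.2% in TM over MZ.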

How the data were processed

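Per the labels and the study's methods, the authors trimmed poly(A) reads with Trimmomatic 0.39. They estimated expected counts per AC gene with Salmon 1.5.1, and the deposited companion score behaves as TPM: it sums to 1000000 per library once 382 repeated rows are dropped. For gonads, the deposited raw counts of genes and TE families were made by the authors with STAR 2.5.4b, keeping multiply mapped reads, and TEtranscripts.

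Expected counts were rounded. Counts were fitted with edgeR 4.0.16 in R 4.3.3 (robust quasi-likelihood, filterByExpr, TMM), AC organs over 14 libraries and testes over 10, genes and TE families together. Calls were made below 0.05 after Benjamini-Hochberg adjustment over every feature in the fit. DESeq2 1.42.0 and limma 3.58.1 were alternatives. The fit was tested on simulated data. Replicate pairs differed by more than counting noise (lowest chi-square per degree of freedom 6.87 over 37 pairs, between TM testes replicates 1 and 3). The other TM pairs lay at 26.7 to 62.4. Whether TM replicates 1 and 3 are as independent as the rest was not tested. Reads carry no molecular identifiers, so intervals and floors cover counting error only. p-values of the fits set a difference between groups against the spread between the sampled libraries. Permutation p-values give the share of rearrangements of the libraries at least as extreme as the one observed.

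Ratios were tested by exact permutation over libraries, and the TE share by 100000 permutations. Named genes were all members and, per list and comparison, up to 2 called genes a direction, taken by size of change, and the 5 genes most like each member. The members and lists were chosen with earlier results of these data known. Sequences, 4 group mean columns, rlog tables and libraries of other species were not used here.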

Additional observations from a re-analysis of the deposited data

Results flagged for a closer look

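Among 47 groups of 4 libraries examined, 5 held a library far from the rest of its group by Dixon's test, where chance flags about 1 in 20. Copy D of piwil1 was at 0.105 TPM in AC testes replicate 2 and at 0 in the other AC testes. With the others at 0 any read would be flagged, so nothing is read from this flag. Copy C of piwil1 was at 7.75 CPM in AC testes replicate 4, against 0.719 to 1.196 CPM in the others. The ratio of ddx4 to piwil2 counts was 2.19 in TM testes replicate 1, against 2.09 to 2.10 in the others, a small step that stands out because those lie close together. The ratio of ddx4 to copy A was 7.04 in AC ovary replicate 1 from Salmon, against 0.658 to 1.16 in the other ovaries, and 3.75 from TEtranscripts, against 0.654 to 1.14. These are the same library and ratio under both counting methods, so the 5 flags are not independent. No member met the test for a difference between the sexes in the gonad-over-brain contrast.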

How the results depend on the processing

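Member calls were recounted under each alternative. The shares of all features called are not given in this section, so the recounts show only how far the member calls held. The counts that moved by more than 1.5 times were few. For the gonad-over-brain difference between sexes, 1 member in place of 0 was called with limma on log2(TPM + 1) and on log2(TPM + 0.1) (ddx4 in both). DESeq2 called 1 in place of 0 in MZ over AC and in TM over MZ (copy B in both). Replicate numbers were not treated as pairs: correlations of deviations lay between -0.192 and 0.236, and not every pair of any comparison was above 0.1. Organs of the same fish need not share deviations, so this check cannot decide whether gonads and brains came from the same fish. With the replicate number as a block, 2 members were called in place of 1 in TM over AC and 1 in place of 0 in MZ over AC, in each case by the addition of copy C, and copy B was added in ovary over female brain (4 in place of 3).

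With one library left out in turn, the member calls ranged from 2 to 3 in testes over ovary, 3 to 4 in testes over male brain and in ovary over female brain, 0 to 1 in the difference between sexes, 1 to 2 in TM over AC, 0 to 2 in MZ over AC and 0 to 1 in TM over MZ, and stayed at 0 in male over female brain. The members related to the TE share were 0 to 1. Without MZ testes replicate 2, copy C reached a pooled r of -0.84 (adjusted p = 0.00345), a value that is not read because its species stand apart. The log2 ratio of copy A to piwil2, testes minus ovary, lay between 0.73 and 1.52, and that of ddx4 to piwil2, TM minus AC, between 0.45 and 0.53. No called log2 fold change changed sign. The restriction to the groups compared could not be applied to the difference between sexes. For copies B to D, the number of reads limits what can be shown.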
